A study of Caenorhabditis elegans with 4 samples.

Results

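The 584 binding sites of the transcription factor NHR-11 that were called on chromosome III of Caenorhabditis elegans L1 larvae are described here. They are all of the series peak list whose chromosome is III, out of 3006 peaks over the 6 chromosomes, and were chosen by chromosome alone. Chromosome III was taken up with its high peak density already known from earlier results of these data, so its density is no independent support. Chromosome III had the highest peak density of the 5 autosomes in all 3 peak lists, namely that of the series and that of either ChIP replicate. Over the whole list, its peaks were not detectably higher, wider, more clustered or better supported by the replicates than those of the other autosomes. Among peaks with q at or below the list's median, the odds of support in both replicates were higher on III than on I, II, IV and V. That fit was not run with IV set aside, and IV had the lowest share of supported peaks of the 5 autosomes.

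Chromatin immunoprecipitation and sequencing (ChIP-seq) recovers DNA crosslinked to a protein, and a peak is a stretch where the recovered reads exceed a control. The 4 samples are 2 ChIP and 2 input libraries, and each pair carries replicate numbers 1 and 2. All were made from L1 larvae, the first larval stage, of hermaphrodites of strain OP305, fixed with 2% formaldehyde. The larvae of ChIP and input alike carry the unc119(ed3) mutation and the transgene wgIs305, which was introduced by bombardment. The transgene encodes NHR-11 tagged with TY1, EGFP and FLAG, and a working unc-119 that marks transformed animals. Anti-GFP antibodies therefore collect the tagged protein, not the untagged NHR-11 of the animal's own gene. The stage label reads L1 26dC and the design text gives growth at 20 °C. Whole larvae were used, so a peak cannot be assigned to a tissue. The labels do not say that replicates were separate cultures, and differences between them may be technical. No values of the input libraries were analysed here. Read numbers are unknown too, so no depth can be given for any peak.

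Nuclear hormone receptors bind DNA through a zinc finger domain, and many also carry a domain that binds small lipophilic ligands. The family is greatly expanded in nematodes, and many members have no known ligand. Worm autosomes have a gene-dense centre with little recombination, flanked by arms with more repeats and more recombination. Chromosome III is the shortest autosome. The unc-119 gene itself lies on III and nhr-11 on IV, per a gene table of assembly WBcel235. Peaks are named by position on build WS220, the build of the peak lists, and were not assigned to genes, because no annotation of that build was used here.

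Chromosome III carried 42.4 series peaks per Mb. Chromosome I carried 34.2, II 29.6, V 29.4 and IV 16.8 peaks per Mb. In the replicate 1 list, III carried 18.8 peaks per Mb against 10.8 over I, II, IV and V. In the replicate 2 list these densities were 18.6 and 9.82 peaks per Mb. The replicate values on III differed little from each other, with 259 peaks in replicate 1 and 256 in replicate 2, a mean density of 18.7 ± 0.154 per Mb (SD, n = 2). The mean density over the other autosomes was 10.3 ± 0.721 per Mb with IV and 12.4 ± 0.869 per Mb without it (SD, n = 2). Both replicate densities on III lay above the densities of the other autosomes in either replicate.

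**Figure D1:**
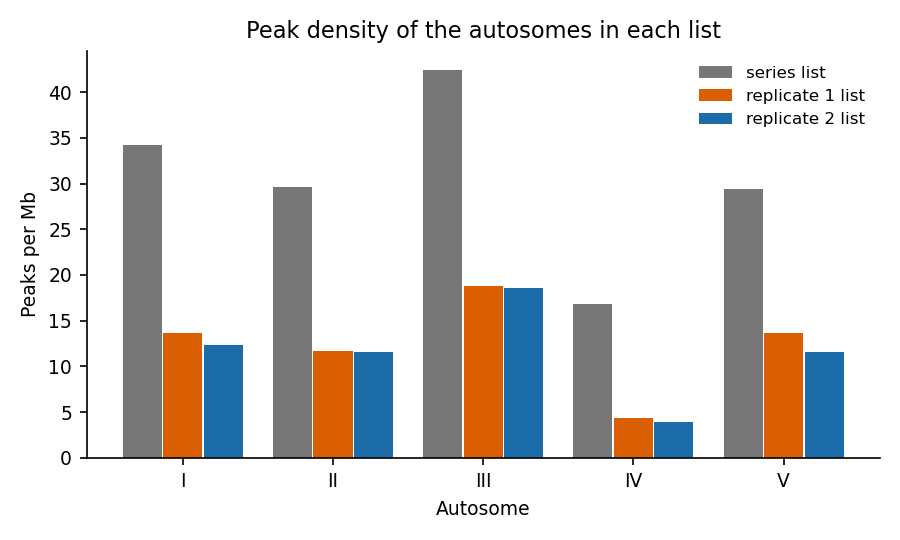
Peaks per Mb (vertical axis) on each of the 5 autosomes (horizontal axis) for the series (grey), replicate 1 (orange) and replicate 2 (blue) lists; each bar is 1 count divided by 1 length, with no error. III is the highest in every list, at 42.4, 18.8 and 18.6 peaks per Mb, and IV is the lowest.

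The density on III was compared with that of the other autosomes over windows of 500 kb, because neighbouring peaks are not independent. Counts per window had 3.42 times the variance of a Poisson count, and the quasi-Poisson fit used here allows for that. The density on III was 1.55 times that of I, II, IV and V together (95% interval 1.31 to 1.85, n = 28 and 139 windows, adjusted p = 1.3e-05 over 10 tests). Chromosome IV has few peaks, and including it raises the ratio. With IV set aside, III still had 1.37 times the density of I, II and V (1.16 to 1.62, n = 28 and 104 windows, adjusted p = 0.00115). The ratios to I, II and V with IV set aside were 1.44 in the replicate 1 list and 1.57 in the replicate 2 list (95% intervals 1.19 to 1.75 and 1.27 to 1.94). Since III was taken up with its high density known, the density p-values here and below are descriptive. Their adjustment does not cover the choice of III among the autosomes.

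Against single chromosomes, the series density on III was 1.24 times that of I (1.02 to 1.51, n = 28 and 31 windows, adjusted p = 0.0331 over 4 fits). It was 1.43 times that of II (1.17 to 1.76), 1.44 times that of V (1.19 to 1.76) and 2.52 times that of IV (2.07 to 3.08). The ratio to I was the smallest in the series list, and it was 1.38 in replicate 1 and 1.51 in replicate 2. In each list all 4 intervals lay above 1. These fits were chosen after the data were seen, as were those that set IV aside within a replicate list.

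Measured against genes instead of length, III was again ahead of the other autosomes. It carried 22.1 series peaks per 100 protein-coding genes, against 12.8 over the other autosomes and 13.98 without IV. Chromosome I, next among the autosomes, carried 17.9 per 100 genes. X, the sex chromosome, carried 20.04 per 100 genes and 30.9 peaks per Mb. Gene numbers came from the WBcel235 table and were 2642 on III, 2877 on I and 2730 on X.

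Dense windows lay along much of III, and the longest run of them was left of its middle. The 3 fullest windows were 5500001 to 6000000 with 34 series peaks, and 4000001 to 4500000 and 7000001 to 7500000 with 32 each. Replicate counts in these windows were 12 and 15, 12 and 17, and 14 and 15 for replicates 1 and 2. The 3 emptiest by count were 12000001 to 12500000 with 11 peaks, the last window from 13500001 with 11, and 1000001 to 1500000 with 12. The last window is only 271266 bp long, so its density was 40.6 peaks per Mb, and the next full window by count was 11500001 to 12000000 with 13. The 27 full windows of III held 21.2 ± 6.85 series peaks (SD, n = 27 windows), with a range of 11 to 34. Full windows of I, II and V held 15.3 ± 7.04 (SD, n = 101 windows), with a range of 1 to 35. The ranges overlap at the top and differ at the bottom, since no full window of III held fewer than 11 peaks. Of the 27 full windows on III, 14 held 20 or more peaks, against 25.9% of all full autosomal windows and 27 of the 101 on I, II and V.

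**Figure D2:**
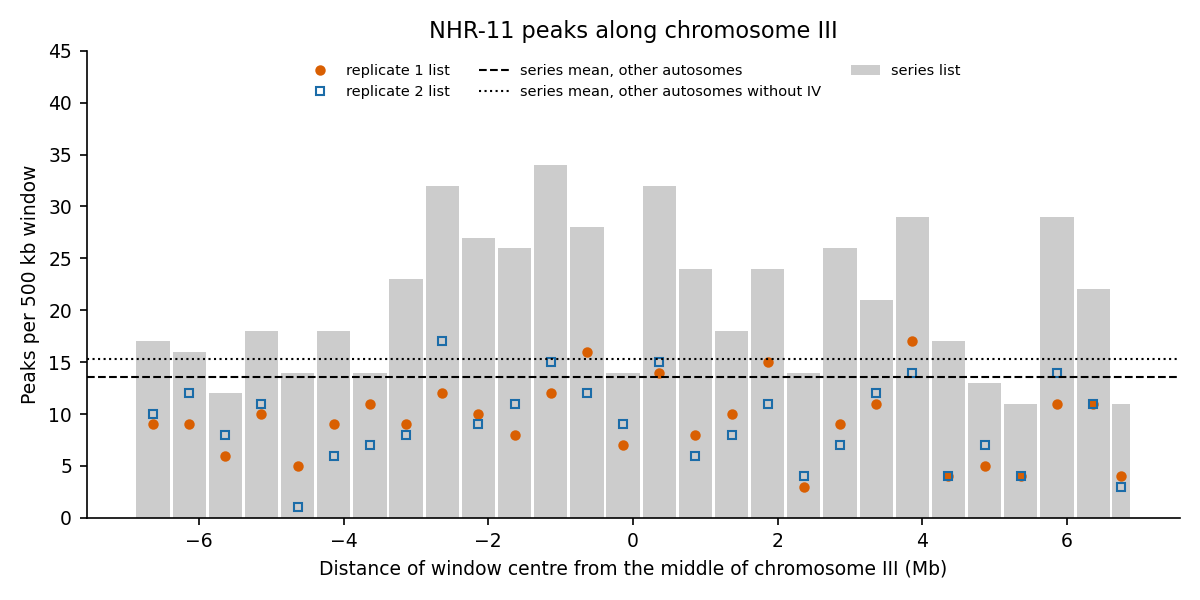
Peaks per 500 kb window (vertical axis) against the distance of the window's centre from the middle of III in Mb (horizontal axis), for the series list (grey bars), replicate 1 (orange circles) and replicate 2 (blue squares). The horizontal lines are the series means of full windows of the other autosomes, 13.6 with IV (dashed) and 15.3 without it (dotted); 5 adjacent bars left of the middle hold 26 to 34 peaks each.

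A run of 5 windows with 26 to 34 peaks each, from 4000001 to 6500000, held 147 series peaks, or 58.8 per Mb. That is 25.2% of the peaks on 18.2% of the length. The same run held 22.4% of the replicate 1 peaks and 25% of the replicate 2 peaks of III. Of its peaks 24.5% were found in both replicates, against 33.2% over the remainder of III, and median −log10 q was 5.54 against 5.10; these differences were not tested. The remainder of III still carried 38.8 peaks per Mb. Without this run, III had 1.42 times the density of I, II, IV and V (n = 23 and 139 windows, adjusted p = 0.00233). It had 1.26 times that of I, II and V (1.04 to 1.51, n = 23 and 104 windows, adjusted p = 0.0789). The second of these no longer passed the threshold. The run was picked out after its counts were seen. The window on its left, from 3500001 to 4000000, held 23 series peaks and was not counted in it. The sparsest neighbouring windows were those from 11000001 to 12500000, with 41 peaks or 27.3 per Mb, and they hold the longest gap, 195605 bp without a series peak from 11445322 to 11640926.

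With the chromosome divided into 3 segments of equal length, III carried 172 series peaks in the left, 223 in the central and 189 in the right segment. These are 37.5, 48.6 and 41.2 peaks per Mb. The same segments of I, II and V together carried 24.5, 40.5 and 27.7 peaks per Mb. The ratio of III to I, II and V was 1.49 on the left (1.10 to 2.01), 1.25 in the centre (1.01 to 1.55) and 1.46 on the right (1.09 to 1.95). With adjustment over the 4 fits of the series list, the left and right ratios passed the 0.05 threshold and that in the centre did not. In the replicate lists, the interval included 1 for the right segment in replicate 1 (0.935 to 2.03) and for the centre in replicate 2 (0.971 to 1.79). The excess of III over I, II and V was not detectably different between the centre and the arms. The ratio in the centre was 0.85 times that outside it (0.625 to 1.16, n = 28 and 104 windows, interaction p = 0.297). It was 0.916 times in the replicate 1 list (0.625 to 1.34) and 0.739 times in the replicate 2 list (0.495 to 1.10). The comparison of segments was chosen after the data were seen.

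Window counts of the replicates followed each other along III. Over the 27 full windows, replicate 1 and replicate 2 counts correlated with rho = 0.80 (Spearman) and r = 0.767 (Pearson), given as a description, since the windows lie side by side. The window with the most peaks over both replicates was 10500001 to 11000000, with 17 and 14. Counts differed most in relative terms at 2000001 to 2500000, with 5 in replicate 1 and 1 in replicate 2.

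The strongest site on III, and the strongest autosomal peak of the series list, lay at 4281790 to 4283509. Peak height is −log10 of the q-value that the authors gave each peak. At this site the series list had 139.9, with replicate heights of 71.7 and 72.8. At 1720 bp this was also the widest peak of III, and in replicate 2 it was split into 2 peaks. The second, at 4237494 to 4238148, lay in the same 500 kb window and reached 93.6 in the series list. Its replicate heights were 51.0 and 52.2. For both sites the replicates differed by under 2 units of height.

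Of the next strongest sites, that at 10758589 to 10759466 had a series height of 76.4 and replicate heights of 47.03 and 40.6. The site at 1924813 to 1925603 had a series height of 72.7, with 38.4 in replicate 1 and 41.1 in replicate 2. The site at 12612217 to 12612832 reached 69.3 in the series list. Its replicate heights of 42.2 and 29.9 stood further apart than those of the sites above. The sixth, at 3866901 to 3867766, had a series height of 63.02 and replicate heights of 42.4 and 40.96.

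The 20 highest series peaks of III were all found in both replicates. Their series heights ran from 36.98 to 139.9 with a median of 48.9, and their widths from 473 to 1720 bp. The SD between the replicate heights of a site (n = 2) ran from 0.591 to 8.83, with a median of 3.34. The largest SD belonged to 7854186 to 7854892, with 37.6 in replicate 1 and 25.1 in replicate 2. The largest proportional gap was at 8417142 to 8417933, with 16.3 in replicate 1 and 25.8 in replicate 2. Replicate 1 was the higher in 9 of the 20, so neither replicate was regularly above the other.

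The others of the 20 began at 13643396, 8799645, 8795491, 8801197, 1920971, 13060766, 4899130, 13062147, 13464197, 12904548, 3801030 and 1859193. They were spread over the chromosome, with 7 of the 20 in the left segment, 6 in the central and 7 in the right one. They fell in 11 of the 28 windows, with at most 3 in a window. The dense run from 4000001 to 6500000 held 3 of the 20. Of the 20, 13 had another series peak within 2 kb, where the share was 32.5% over all III peaks and 29.1% over all series peaks. The highest peaks of the other autosomes were not compared in this respect.

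**Figure D3:**
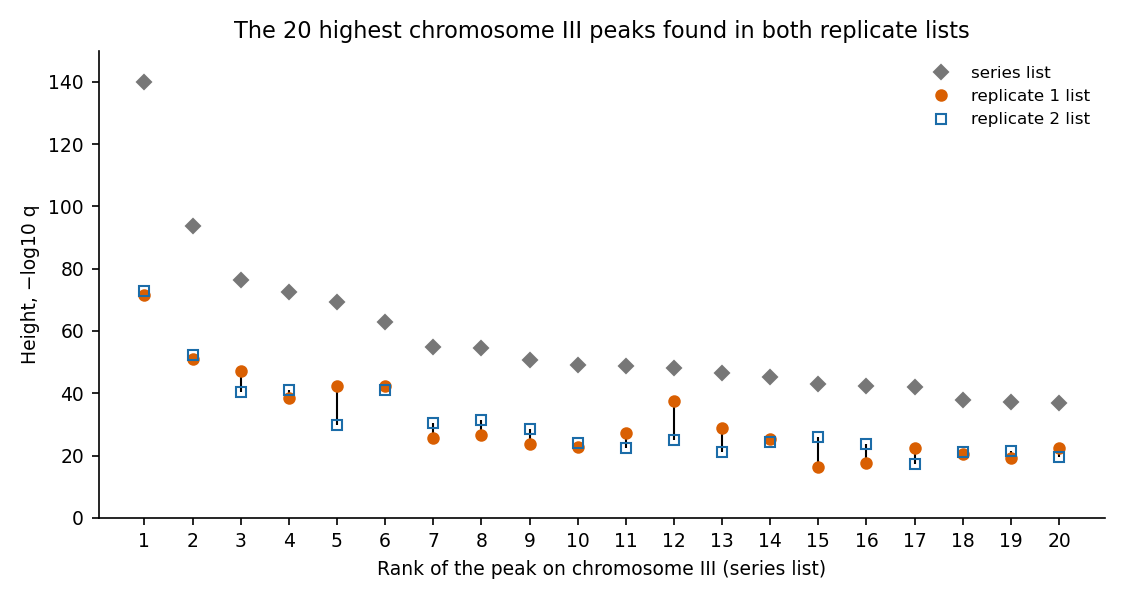
Peak height as −log10 q (vertical axis) of the 20 highest III peaks found in both replicate lists, in order of series height (horizontal axis), as series (grey diamonds), replicate 1 (orange circles) and replicate 2 (blue squares) values; a line joins the replicate values. Series heights fall from 139.9 to 36.98, and the SD of the replicate values of a peak runs from 0.591 to 8.83.

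Over all 584 peaks, series heights ran from 3.01 to 139.9 with a median of 5.24 and an interquartile range of 3.71 to 9.57. The median over I, II, IV and V was 5.39, and over I, II and V it was 5.36. The 90th percentile was 21.1 on III against 17.1 and 16.4, a difference that was not tested. Of the III peaks, 139 (23.8%) exceeded a height of 10, against 23% of all series peaks. Above a height of 50 there were 9 peaks on III (1.54% of its peaks, 0.654 per Mb) and 18 on I, II and V (1.14%, 0.351 per Mb), a difference that was not tested. Window means of height on III were 1.01 times those of I, II, IV and V (95% interval 0.908 to 1.11, linear model, n = 28 and 138 windows, adjusted p = 0.913). Against I, II and V the ratio was 1.05 (0.966 to 1.15, n = 28 and 103 windows, adjusted p = 0.284). Any difference in typical height beyond these intervals was not detected.

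**Figure D4:**
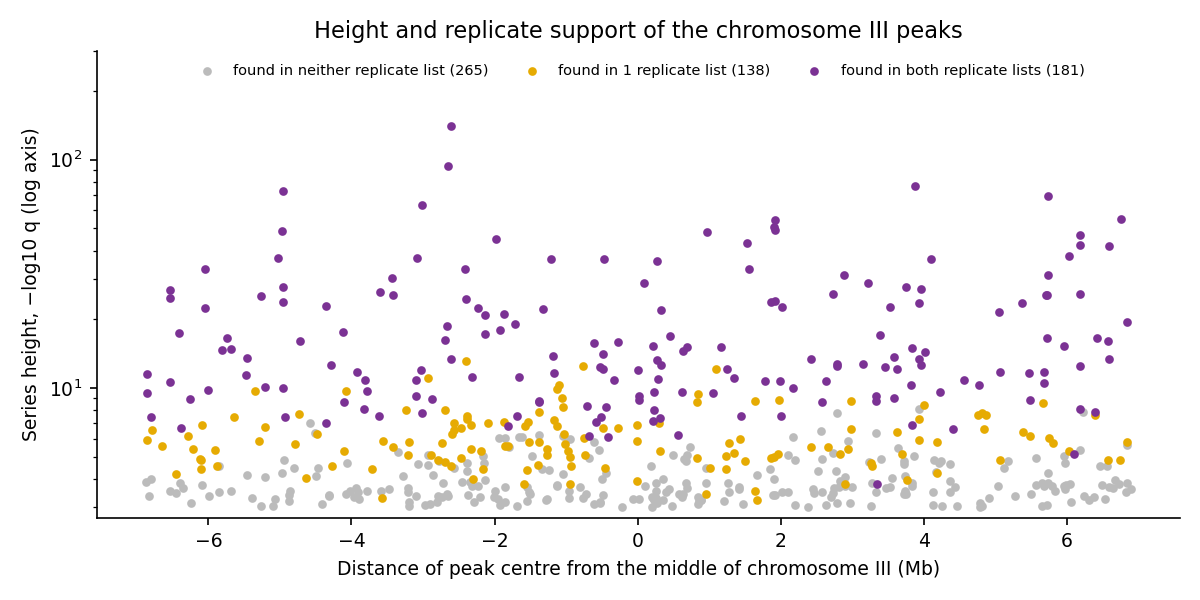
Series height as −log10 q on a log axis (vertical) against the distance of each peak's centre from the middle of III in Mb (horizontal), 1 point per peak. Peaks found in both replicate lists (181, purple) lie at the top, those in 1 list (138, yellow) below them and those in neither (265, grey) at the bottom, with overlap between the classes.

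Peaks on III were not detectably wider or narrower than elsewhere. The median width was 367 bp with an interquartile range of 265 to 513.5 bp, against 398 bp over I, II, IV and V and 392.5 bp over I, II and V. The replicate medians on III stood at 369 bp and 364.5 bp. Window means of width on III were 0.898 times those of I, II, IV and V (0.792 to 1.02, n = 28 and 138 windows, adjusted p = 0.237). They were 0.931 times those of I, II and V (0.841 to 1.03, n = 28 and 103 windows, adjusted p = 0.276). Peaks wider than 1 kb numbered 24 (4.11%), against 5.66% of all series peaks. None of the 584 on III exceeded 3 kb, and 14 of all 3006 series peaks did. On I, II, IV and V there were 12 of 1875, with 1 of 516 on I, a difference that was not tested. After the highest peak, the widest were at 12614460 to 12616140 (1681 bp, series height 31.2) and 10815753 to 10817312 (1560 bp, 23.7). At the other extreme, 33 peaks of III (5.65%) were narrower than 100 bp, the shortest being 2 bp, against 4.89% of all series peaks and 85 (4.53%) on I, II, IV and V. Of the 33, 0 were found in both replicates and 3 in at least 1, and of the 85, 0 were found in both. Their median height was 3.49, near the bottom of the list. Height and width were correlated over the 584 peaks (Spearman's rho 0.619, across peaks of 1 list), and q itself depends on the reads in a peak.

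A near neighbour was not detectably more frequent for peaks of III than for those of the other autosomes. With neighbours joined where at most 2 kb separated their edges, 190 of the 584 peaks (32.5%, exact 95% interval 28.7 to 36.5%) fell into 75 clusters, and the remaining 394 stood alone. The share over all series peaks was 29.1%. It was 29.1% over I, II and V too, and 28.3% with IV included. In the replicate lists, 22.01% and 24.6% of III peaks were clustered, against 18.2% and 20.4% of all peaks of those lists. The odds of lying in a cluster were 1.22 times those on I, II, IV and V (0.941 to 1.59, quasi-binomial fit, n = 28 and 138 windows, adjusted p = 0.264). They were 1.17 times those on I, II and V (0.89 to 1.55, n = 28 and 103 windows, adjusted p = 0.284). With peaks within 2 kb counted once, III had 469 sites, or 34.1 per Mb against 25.6 on I, II and V.

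Most clusters were small, with 48 pairs, 19 groups of 3, 4 of 4, 3 of 5 and 1 of 6. Their median span was 2352 bp and the longest was 7950 bp. Of the 75 clusters, 49 (65.3%) held a peak found in both replicates, against 56.5% of all clusters of the series list. On I, II, IV and V this share was 52.02% (116 of 223), and on I, II and V 56.3% (107 of 190). These shares were not tested against each other. On III 8 of the 75 clusters had every peak in both, against 29 of all 356 series clusters (8.15%). No peak in either was found for 10 of the 75, against 74 of the 356 (20.8%). Clustered peaks of III had a median height of 6.08 and were found in both replicates in 40.5% of cases. For peaks that stood alone these values were 4.94 and 26.4%. On I, II and V the shares found in both were 32.8% for clustered and 26.2% for single peaks. This difference was not tested.

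The largest cluster, from 5498847 to 5506420, held 6 peaks in 7574 bp. Their heights ran from 4.62 to 8.74, and 2 were found in both replicates. The cluster from 1920971 to 1926825 was of another kind, with 5 peaks in 5855 bp and all 5 found in both replicates. Their series heights along the chromosome were 48.7, 10.04, 23.8, 72.7 and 27.6. Replicate heights at the tallest were 38.4 and 41.1, and at the lowest 4.77 and 5.64. The cluster from 8794680 to 8802629 held 5 peaks in 7950 bp, and 4 of them were found in both replicates. Heights there were 3.98, 50.8, 24.05, 54.6 and 49.06, so 3 of the 10 highest peaks of III lay in this one stretch. Of its 7950 bp, 4473 bp (56.3%) lay within peaks.

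Replicate support for III peaks was near that of the whole list. Of the 584, 181 (31%, exact 95% interval 27.3 to 34.9%) overlapped a peak in both replicate lists by at least 1 bp, against 28.4% of all series peaks. A further 72 (12.3%) were found in replicate 1 only, against 11.7% of all, and 66 (11.3%) in replicate 2 only, against 9.38%. The other 265 (45.4%) were found in neither, against 50.5%. At least 1 replicate supported 319 (54.6%), against 49.5%. The odds of being found in both were 1.24 times those on I, II, IV and V (0.985 to 1.55, n = 28 and 138 windows, adjusted p = 0.222). They were 1.15 times those on I, II and V (0.919 to 1.43, n = 28 and 103 windows, adjusted p = 0.284). Among peaks with q at or below the median of the list, the odds ratio against I, II, IV and V was 1.52 and passed the threshold (1.11 to 2.08, quasi-binomial fit over windows, adjusted p = 0.0292). This fit was not run with IV set aside, so the part that IV plays in it was not tested. At ranks 501 to 1000 of q, 70.7% of III peaks were found in both replicates. This share was 55.1% on I, II, IV and V and 64.5% on I, II and V. Of all series peaks on IV, 18.8% were found in both replicates, against 28.1% on I, II and V.

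Support was highest among the highest peaks, and every list ends at the same limit of q. All 22 III peaks among the 100 lowest q of the series list were found in both replicates, as were all 43 on I, II, IV and V. At ranks 101 to 500 the count was 73 of 74 on III, 249 of 260 on I, II, IV and V and 208 of 211 without IV. At ranks 501 to 1000, 70 of 99 on III were found in both (70.7%, exact 95% interval 60.7 to 79.4%). On I, II, IV and V this share was 55.1% (49.5 to 60.7%), and without IV it was 64.5% (58.4 to 70.3%). The interval on III begins where the first of these ends and overlaps the second. At ranks 1001 to 2000 the share fell to 15 of 189 on III (7.94%), against 4.72% on I, II, IV and V and 5.59% without IV. At ranks 2001 to 3006 it was 1 of 200 on III. The median height was 13.5 for III peaks found in both replicates, 5.51 and 5.94 for those in replicate 1 only and replicate 2 only, and 3.67 for those in neither. The highest III peak lacking in a replicate, at 4491254 to 4492119, had a height of 13.1, was the 96th highest of the chromosome and was found in replicate 2. The highest found in neither, at 10817874 to 10818459, had a height of 8.08.

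**Figure D5:**
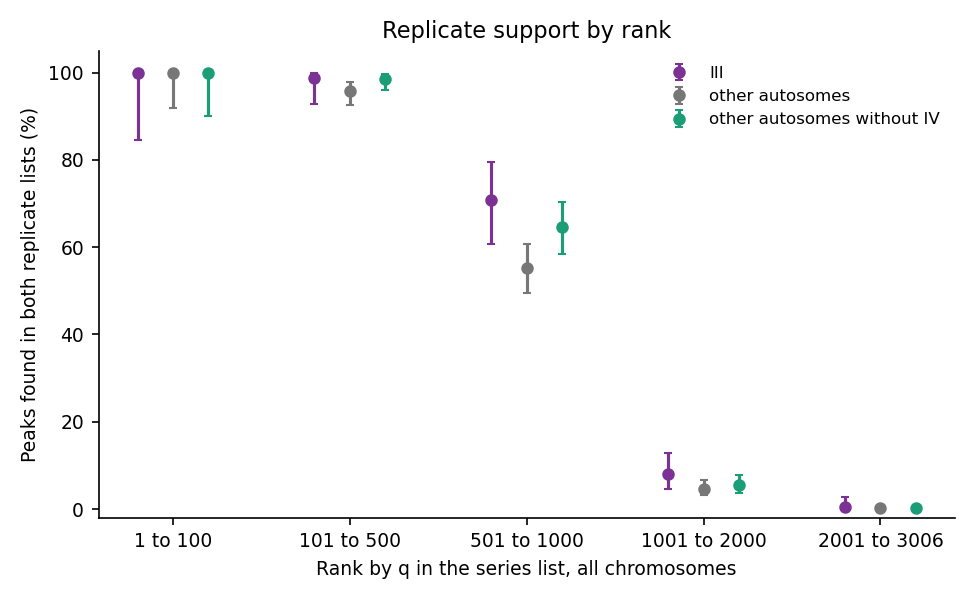
Percentage of series peaks found in both replicate lists (vertical axis) by rank of q in the whole series list (horizontal axis) for III (purple), I, II, IV and V (grey) and I, II and V (green); bars are exact 95% intervals for counting error. Support on III falls from 100% at ranks 1 to 100 to 70.7% at ranks 501 to 1000 and 7.94% at ranks 1001 to 2000.

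Over the 181 III peaks found in both, the replicates gave like heights and positions. On the log2 scale replicate 1 exceeded replicate 2 by a median of 0.12 in height, with an SD of 0.51 across peaks. On I, II and V the median difference was 0.01 on the log2 scale with an SD of 0.47. Of the 181, 170 (93.9%) were within a factor of 2, against 96.4% on I, II and V, a difference that was not tested. The centres of the matched replicate peaks lay a median of 27.5 bp apart, and 142 pairs (78.5%) were within 100 bp, against 78.2% on I, II and V. The series height was a median of 1.01 times the sum of the replicate heights, against 1.05 on I, II and V. Read from the replicate side, 179 of the 259 replicate 1 peaks of III (69.1%) overlapped a replicate 2 peak, against 69.8% of that list. Of the 256 replicate 2 peaks, 182 (71.1%) overlapped a replicate 1 peak, against 73.7%.

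A few sites of III were called in both replicates but were weak or lacking in the series list. Of the replicate 1 peaks on III, 253 (97.7%) overlapped a series peak, against 97.4% of that list, and 250 (97.7%) of the replicate 2 peaks did, against 97%. Each replicate thus had 6 peaks without one, and 2 of the 6 were shared. The first of these lay at 931227 to 931833 in replicate 1 with a height of 9.08, and at 931226 to 931869 in replicate 2 with 10.7. The nearest series peak was over 29 kb away. The other lay at 1299607 to 1300477 in replicate 1 with a height of 6.34, and at 1299607 to 1301024 in replicate 2 with 10.06. It falls within a stretch of III from 1243565 to 1418736 (175172 bp) without a series peak. The remaining 4 of each replicate had heights below 3.8 and were found in that replicate alone.

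At 2 other sites the series list had a peak, but a lower one than either replicate. The peak at 10224452 to 10225341 had a height of 14.03 in replicate 1, 11.4 in replicate 2 and 3.80 in the series list. The peak at 7446683 to 7447880 had heights of 14.98, 15.4 and 6.25. Over all chromosomes, 5 of the 854 series peaks found in both replicates were of this kind, 2 of them on III and 2 on I, II and V. These sites were picked out after their values were seen. How the series list was made from the reads is not given in the sources used here.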

How the data were processed

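Peak lists of the 2 ChIP libraries and of the series were read. Peaks were called with PeakSeq on WormBase build WS220, per the file headers and source column; for the aligner, PeakSeq version, use of the input and any pooling of replicates the entry is: not given in the sources used here. The score deposited by the authors was read as a q-value, below 0.001 for every peak, because score times rank never fell with rank. Height was computed here as −log10 of it; it depends on depth and width as well as enrichment. Depth is unknown. Rank numbers missing from the lists numbered 12, 3 and 1 for the series, replicate 1 and replicate 2 lists; those peaks were not analysed here.

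Overlap meant 1 bp or more; of several overlapping peaks the lowest q was used. Chromosome length was the last peak end in any list. Peaks were assigned by midpoint to windows of 500 kb. The III term was tested two-sided with quasi-Poisson (density), quasi-binomial (support, clusters) and linear models (mean log2 height, width) over windows, taken as independent, with Benjamini-Hochberg adjustment over 10 tests (5 measures, with and without IV); windows without a peak entered only the density fit. For an alternative, its p replaced the corresponding one among the 10. Such p-values measure spread between windows, not between samples. Exact intervals are Clopper-Pearson and cover counting error only. In 200 simulated data sets without an effect, 5 (density), 9 (support), 13 (height), 8 (width) and 8 (clusters) had p under 0.05. The simulated peaks lay in small clumps spread evenly over all autosomes. Their height, width, support and clustering were drawn independently for each peak. Real density varied along and between chromosomes, so these counts do not give the error rate of the tests on the data. Named peaks are the 20 highest of III found in both replicate lists, the 3 widest, the 3 largest clusters (ties by height), the 3 fullest and 3 emptiest windows and the 2 highest replicate peaks without a series peak. Members, measures and rules were chosen with earlier results of these data known. Models were fitted with statsmodels 0.14.6 and SciPy 1.17.1 in Python 3.11.15, tables were handled with pandas 2.3.3 and NumPy 2.4.6, and figures drawn with matplotlib 3.10.9.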

Additional observations from a re-analysis of the deposited data

How the results depend on the processing

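Of 55 alternatives, 42 planned and 13 added after the data were seen, 49 kept their direction and their side of the 0.05 threshold. The density ratio of III to the other autosomes kept both in every alternative run, except that it was 1.26 (n = 23 and 104 windows, adjusted p = 0.0789) with IV and the windows from 4000001 to 6500000 of III left out; that alternative removes dense windows from III only. It ranged from 1.74 to 1.89 over the replicate lists taken alone and from 1.44 to 1.57 in them without IV. Against I, II, IV and V it was 1.49 with peaks within 2 kb merged, and 1.33 with IV left out as well. Without the fullest window it was 1.52, and for peaks found in both replicates 1.81. Both of these are against I, II, IV and V and were not run without IV. The support odds ratio against I, II, IV and V was 1.52 (quasi-binomial fit over windows, adjusted p = 0.0292) for peaks with q up to the list's median, where it passed the threshold. That alternative was not run without IV. The height ratio, never past the threshold, fell below 1 with windows of 250 kb (0.998), in peaks found in both replicates (0.957) and in the replicate 2 list; it ranged from 0.981 to 1.07 over the replicate lists and from 1.004 to 1.09 in them without IV. The cluster odds ratio, also never past it, was 0.916 with the number of peaks in the window as a covariate, and ranged from 1.40 to 1.48 over the replicate lists and from 1.36 to 1.41 in them without IV. It was 1.60 (1.05 to 2.43, quasi-binomial fit over windows, adjusted p = 0.0966) for peaks with q up to the list's median. For peaks found in both replicates it was 1.71 (0.990 to 2.96). The width ratio ranged from 0.84 to 0.887 over the replicate lists and from 0.899 to 0.925 in them without IV. The cause was not tested for the support and height results. No paired analysis was possible because no values of the inputs were analysed here. Read numbers were not known, so a depth limit on the weak peaks cannot be given.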
